A study of Arabidopsis thaliana with 4 samples.

Results

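The AINTEGUMENTA-LIKE (AIL) genes, which include the PLETHORA (PLT) genes, BABY BOOM (BBM) and AINTEGUMENTA (ANT), were followed in globular-stage embryos of Arabidopsis thaliana. The 8 members were taken by gene identifier from the deposited count tables, out of 27880 rows: PLT1 (AT3G20840), PLT2 (AT1G51190), PLT3 (AT5G10510, also AIL6), BBM (AT5G17430), PLT5 (AT5G57390, also AIL5), PLT7 (AT5G65510, also AIL7), AIL1 (AT1G72570) and ANT (AT4G37750). All 8 had a row, and 7 had enough counts to be tested. The study sequenced RNA from embryos of 32 to 64 cells, in 2 libraries of the serrate-1 mutant (se-1) and 2 of wild type, all in the Col background and with no treatment in either genotype. The mutated gene, SERRATE, encodes a zinc-finger protein that helps excise microRNAs from their precursors and also acts in splicing, and se-1 is known as a partial loss-of-function allele. How many embryos went into a library is not given in the sources used here.

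AIL proteins are transcription factors that bind DNA through a pair of AP2 domains. PLT1, PLT2, PLT3 and BBM act together in the embryonic root pole, where they set up the root stem cell niche under the influence of auxin. BBM can also induce somatic embryos when it is overexpressed. PLT3, PLT5 and PLT7 act in the spacing of lateral organs and in lateral root formation, and ANT promotes the growth of ovule integuments and lateral organs. Genes of the related AP2 and TOE group are repressed by miR172, a microRNA whose complementary site lies in their coding region.

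Every member carries an internal exon of 9 nt, which is shown here because SERRATE also acts in splicing and because this exon sets the AIL genes apart from the AP2 and TOE genes. The spliced sequence around it is given 5′ to 3′ from the RefSeq annotation of the TAIR10.1 genome, with the 9-nt exon in capitals and 18 nt of the neighbouring exons on each side in lower case.
PLT1: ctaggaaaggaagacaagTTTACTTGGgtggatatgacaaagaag
PLT2: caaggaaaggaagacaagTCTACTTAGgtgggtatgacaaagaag
PLT3: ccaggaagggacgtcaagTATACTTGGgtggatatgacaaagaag
BBM: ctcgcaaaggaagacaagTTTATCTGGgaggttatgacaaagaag
PLT5: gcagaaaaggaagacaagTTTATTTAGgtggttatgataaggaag
PLT7: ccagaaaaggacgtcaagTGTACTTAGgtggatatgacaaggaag
AIL1: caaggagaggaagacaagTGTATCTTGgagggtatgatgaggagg
ANT: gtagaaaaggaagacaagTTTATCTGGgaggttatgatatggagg
In TAIR10.1 the exon lies at chr3:7301705-7301713 in PLT1, chr1:18978680-18978688 in PLT2 and chr5:3318813-3318821 in PLT3. It lies at chr5:5744157-5744165 in BBM, chr5:23254975-23254983 in PLT5 and chr5:26188371-26188379 in PLT7. In AIL1 and ANT it lies at chr1:27332550-27332558 and chr4:17741106-17741114. BBM and PLT5 are on the minus strand and the others on the plus strand. Of the 45 positions shown, 26 were identical in all 8 members, among them 5 of the 9 in the exon, and BBM and ANT had the same 9 nt. In 24 coding genes of this annotation the smallest internal exon has 9 nt. These were the 8 members, the 4 related AP2-type genes WRI1, WRI3, WRI4 and AT2G41710, and 12 others, whereas the smallest internal exon of AP2, TOE1, TOE2, TOE3, SMZ and SNZ had 26 nt. Counts per gene hold no information on whether this exon was spliced in.

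The miR172 site offers a second contrast between the members and the AP2 and TOE genes, and it is shown because microRNA processing is what SERRATE is best known for. In the lines that follow, mature miR172a is written as DNA with its seed (bases 2 to 8) in capitals, and the best ungapped stretch of a transcript has in capitals the bases that pair with miR172a, without G:U pairs.
miR172a: aGAATCTTgatgatgctgcat
TOE2: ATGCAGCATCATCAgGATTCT
AP2: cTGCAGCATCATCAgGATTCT
ANT: tcGaAtCAcCATCAAGATTCa
PLT2: ATtCActcTtcaCAAaATTCT
PLT1: AaGataaAgCAgCAAGATcaT
The site paired at 20 of 21 bases in TOE2 and 19 in AP2. The best stretches of the 8 members paired at 12 bases in PLT1 to 15 in ANT, where the stretch runs across a splice junction. At least 17 paired bases were found in 0.124% of 31460 annotated mRNAs (1 per gene, pseudogenes included), and at least 15 in 5.53%. At least 12 were found in 93.5%. By this measure no member had a stretch like that of AP2 or TOE2.

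The libraries held between 18580516 and 20882004 counted reads. Levels are CPM, the reads of a gene relative to the TMM-scaled size of its library. Differences between the genotypes were tested with edgeR's quasi-likelihood test, with p adjusted over all 18714 genes tested. Of these genes 72.3% passed at 0.05, 36.2% higher and 36% lower in se-1. The embryo label was checked with 8 embryo markers, which were all detected and summed to 1181 to 1237 CPM in se-1 and 1537 to 1643 CPM in wild type. The largest falls in CPM were those of ATML1 (mean 309 CPM in se-1 against 547 in wild type) and PDF2 (276 against 454). Of the 8 markers 4 rose and 3 fell, or 3 and 5 after length correction, so the lower sum does not stand for the whole list. LEC1, a regulator of embryo identity, stood at 433 to 533.5 CPM. Markers of other seed tissues were present as well. The 9 endosperm markers summed to 92.6 and 94.8 CPM in se-1 against 117 and 125 CPM in wild type, and the 12 seed coat markers to 191.5 and 201 CPM against 144 and 156 CPM. None of these markers was at 0 in all libraries, but IKU2 had 0 counts in both se-1 libraries. IKU2, MINI3 and INO were too low to be tested, and AGL62 and MEA stood at only 0.369 to 1.10 CPM. Neither list moved in 1 direction. Of the 7 tested endosperm markers 2 rose, among them PHE1 (log2 fold change 2.90, adjusted p = 7.5e-13), and 4 fell, among them FIS2 (-2.57, adjusted p = 5.94e-12). Of the 11 tested seed coat markers 5 rose and 3 fell. Fewer cells of a type and less RNA per cell cannot be told apart in whole-embryo RNA.

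ANT and PLT2 fell and PLT7 rose in se-1, while PLT1, BBM, PLT5 and PLT3 did not pass the test and AIL1 was hardly detected. Of the 7 tested members 3 were called, 1 higher and 2 lower, beside 72.3% of all genes. Their median log2 fold change was -0.12, against 0.00 over all genes tested. The genotypes did not overlap in 5 of the 7 tested members, against 85.5% of all genes. Without wild-type replicate 1, PLT1 (lower) and PLT3 (higher) also passed and 5 members were called.

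**Figure D1:**
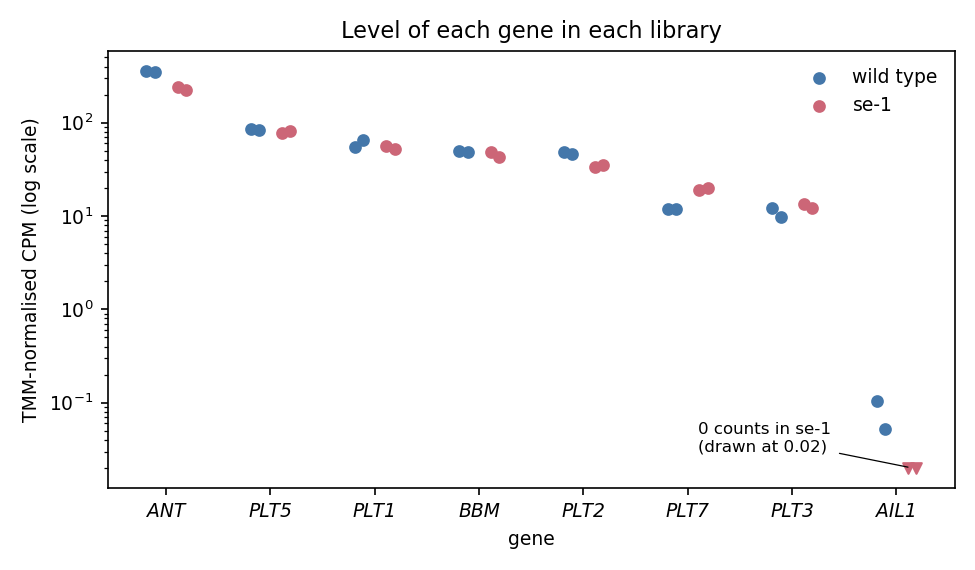
TMM-normalised CPM (log axis) of each of the 8 genes in each library, with 2 points per genotype. ANT lies above all other members in every library, its se-1 points (224.6 and 239.6) are below its wild-type points (352 and 362), and the se-1 points of PLT7 (19.1 and 20.1) are above its wild-type points (both 11.9).

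ANT, the growth regulator of ovules and organs, was the most abundant member. Wild-type libraries held 362 and 352 CPM of ANT and mutant libraries 239.6 and 224.6 CPM. Both mutant libraries were thus below both wild-type libraries. Its level fell 1.54-fold (adjusted p = 1.59e-06, log2 fold change -0.62, SE 0.081) and 22% of all genes passed the test with a fall of 1.5-fold or more. ANT is known from the ovule integuments, which become the seed coat. Most of the higher sum of the seed coat markers in se-1 was BAN, a gene of tannin synthesis, at 124.9 and 127.7 CPM against 86.8 and 80.1 CPM in wild type. Of the 11 tested markers of that list 3 fell as ANT did, among them STK, an ovule identity gene (log2 fold change -1.14, adjusted p = 1.11e-07). The 5 that rose included SHP2 (1.48, adjusted p = 6.16e-09) and SHP1 (0.82, adjusted p = 2.4e-04). The part of seed coat RNA in the level of ANT was not tested.

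PLT2, a master regulator of the root stem cell niche that acts in part redundantly with PLT1, stood at 33.7 and 34.9 CPM in se-1 and at 48.3 and 46.2 CPM in wild type. The groups were well apart, with both mutant libraries low. It fell 1.38-fold (adjusted p = 8.2e-05, log2 fold change -0.46 with an SE of 0.085). PLT1 stood at 56.2 and 52.4 CPM in se-1 and at 55.1 and 65.5 CPM in wild type. Here the groups overlapped, because wild-type replicate 1 was at the level of the mutant. The log2 fold change of PLT1 was -0.15 (95% interval -0.35 to 0.04, adjusted p = 0.147), and it moved with the wild-type library left out, to -0.27 (adjusted p = 0.0318) without replicate 1 and to -0.03 (adjusted p = 0.859) without replicate 2.

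BBM, the gene that can trigger embryo formation from vegetative tissue, stood at 48.7 and 42.7 CPM in se-1 and at 50.3 and 49.0 CPM in wild type. The mutant libraries were the lower ones by a narrow margin, and se-1 replicate 2 was the lowest. BBM did not pass (log2 fold change -0.12, 95% interval -0.31 to 0.06, adjusted p = 0.227).

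Among the members that act in lateral organ spacing, PLT7 was the one that rose. It stood at 19.1 and 20.1 CPM in se-1 against 11.9 CPM in both wild-type libraries, so that the genotypes were clearly separate. PLT7 was 1.65-fold higher (log2 fold change 0.72, SE 0.10, adjusted p = 4.89e-06), and 24.7% of all genes passed with a rise of 1.5-fold or more. The convergent gene AT5G65520 ends 144 nt from PLT7 on the other strand and is annotated as a tetratricopeptide repeat protein. It stood at 47.1 and 46.3 CPM in se-1 against 17.9 and 18.5 CPM in wild type. AT5G65520 thus also rose (log2 fold change 1.36, adjusted p = 1.74e-10, or 0.67 after length correction). Whether reads of this gene were counted for PLT7 was not tested, and the strand setting of the counting is not given in the sources used here.

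PLT5 stood at 76.8 and 82.3 CPM in se-1 and at 86.4 and 84.0 CPM in wild type. The groups lay side by side without overlap, with a gap smaller than the spread of the mutant libraries. PLT5 did not pass (log2 fold change -0.10, 95% interval -0.27 to 0.07, adjusted p = 0.279).

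PLT3 stood at 13.3 and 12.1 CPM in se-1 and at 12.3 and 9.83 CPM in wild type. The groups overlapped, wild-type replicate 2 being the lowest library. PLT3 did not pass (log2 fold change 0.20, 95% interval -0.06 to 0.46, adjusted p = 0.161). It too moved with the wild-type library left out, to 0.37 (adjusted p = 0.0248) without replicate 1 and to 0.04 (adjusted p = 0.817) without replicate 2. PLT3 overlaps RBK1, a protein kinase gene on the other strand, by 454 nt. RBK1 itself stood at 0.192 to 0.575 CPM over the 4 libraries, far below PLT3.

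AIL1 had 0 counts in both se-1 libraries and 2 and 1 counts in the wild-type libraries. A sum of 0 allows up to 0.0759 CPM in se-1, counting error only, and the wild-type level was 0.0787 CPM. No difference was detectable at this depth, and no fold is given.

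Levels of different members can be compared per kb of transcript, although amplification from the poly(A) tail makes such levels approximate. In wild type the order of the level per kb was ANT (166 ± 3.23 CPM per kb, SD, n = 2), PLT5 (35.3 ± 0.717), PLT1 (25.5 ± 3.10), BBM (23.8 ± 0.423), PLT2 (21.1 ± 0.652), PLT7 (7.18 ± 0.031), PLT3 (4.03 ± 0.642) and AIL1 (0.0632 ± 0.0301). PLT1 and BBM overlapped in their libraries, and every other pair of neighbours in this order was separate. In se-1 the same order held, with ANT at 108 ± 4.91, PLT5 at 32.97 ± 1.60, PLT1 at 22.9 ± 1.14, BBM at 21.9 ± 2.01, PLT2 at 15.3 ± 0.398, PLT7 at 11.9 ± 0.434 and PLT3 at 4.63 ± 0.310 CPM per kb (SD, n = 2), and PLT1 again overlapped with BBM. PLT2 thus stood closer to PLT7 in the mutant than in wild type.

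The make-up of the family shifted accordingly. ANT supplied 59.0% and 58.2% of the summed level per kb in the wild-type libraries and 50.2% and 48.9% in the se-1 libraries. PLT7 supplied 2.52% and 2.57% in wild type and 5.21% and 5.71% in se-1. Ratios of counts within a library, which need no scaling between libraries, moved in the same way. There were 12.5 and 11.2 ANT reads per PLT7 read in se-1 against 30.5 and 29.5 in wild type. There were 4.92 and 5.26 ANT reads per BBM read in se-1 against 7.20 and 7.18 in wild type. For PLT1 over PLT2 the ratio was 1.67 and 1.499 in se-1 and 1.14 and 1.42 in wild type, groups that were separate by a small gap. With 2 libraries per genotype an exact permutation test of such a ratio cannot go below p = 0.333, and none was run. The 8 members together summed to 622 ± 5.44 CPM in wild type and to 478 ± 12.9 CPM in the mutant (SD, n = 2). Without ANT the sums were 265.5 ± 1.52 CPM in wild type and 246 ± 2.27 CPM in the mutant, so most of the difference in the sum came from ANT.

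**Figure D2:**
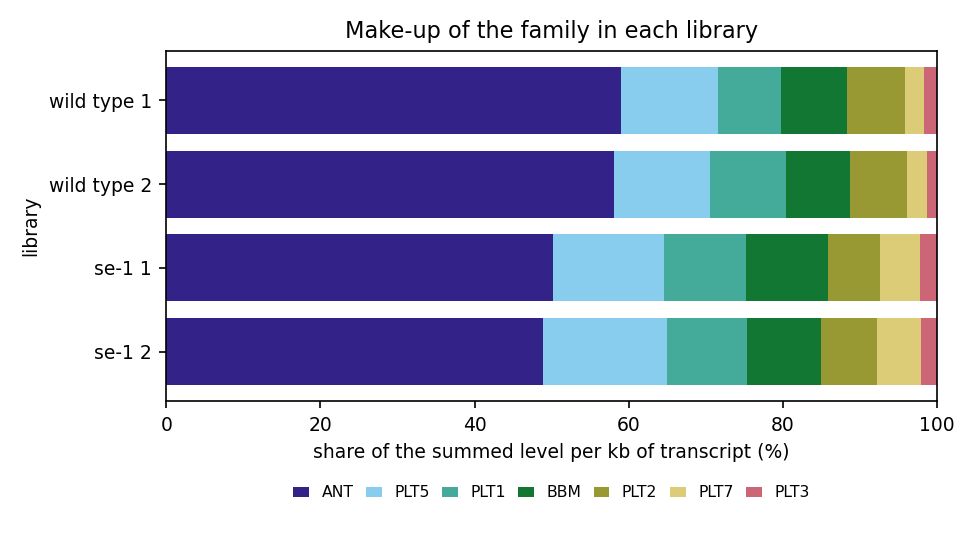
Share of each gene in the summed level per kb of transcript (%), 1 bar per library; AIL1 is too low to be drawn. The ANT segment is shorter in the se-1 libraries (50.2% and 48.9%) than in the wild-type libraries (59.0% and 58.2%), and the PLT7 segment is longer.

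In these libraries short transcripts tended to be higher and long ones lower in se-1, so each member was also read against genes of its own length. For the 1779 coding genes of 2000 to 2250 nt, the log2 fold change had a median of -0.09 and an interquartile range of -0.49 to 0.32. ANT, at 2154 nt, lay below that range and BBM, at 2084 nt, near its middle. PLT2, at 2244 nt, lay inside the range near its lower end. Between 1500 and 1750 nt the median was 0.10 (interquartile range -0.39 to 0.55), and PLT7, at 1655 nt, lay above that range. Between 2500 and 2750 nt the median was -0.29 (interquartile range -0.65 to 0.11), and PLT3, at 2748 nt, lay above that range. PLT1 and PLT5, at 2368 and 2413 nt, were close to the median of -0.19 of genes of 2250 to 2500 nt.

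**Figure D3:**
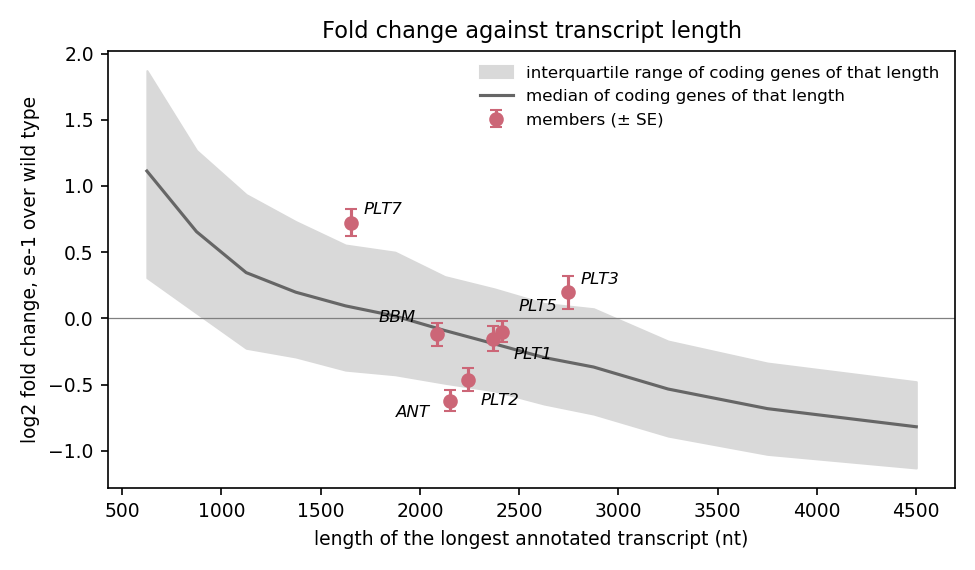
Log2 fold change of se-1 over wild type (vertical axis) against the length of the longest annotated transcript in nt (horizontal axis); the line and band are the median and interquartile range of coding genes by length class, and the points are the 7 tested members with their SE. PLT7 and PLT3 lie above the band, ANT lies below it, and the other 4 lie inside it.

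With the length trend removed, ANT and PLT2 were still lower, at log2 fold changes of -0.48 (adjusted p = 3.88e-05) and -0.29 (adjusted p = 0.00481), and PLT7 was still higher, at 0.65 (adjusted p = 2.09e-05). PLT3 now passed as well and was higher, at 0.51 (SE 0.12, adjusted p = 0.00129). With this, 4 of 7 members were called, 2 higher and 2 lower, beside 66.8% of all genes under the same correction (32.7% higher and 34.1% lower). PLT1 and PLT5 changed sign, to 0.05 and 0.12, and BBM was at 0.00, all without passing. After correction for length and GC content the same 4 members passed, with PLT3 at 0.55 and ANT at -0.43. Whether the length trend is technical was not tested.

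**Figure D4:**
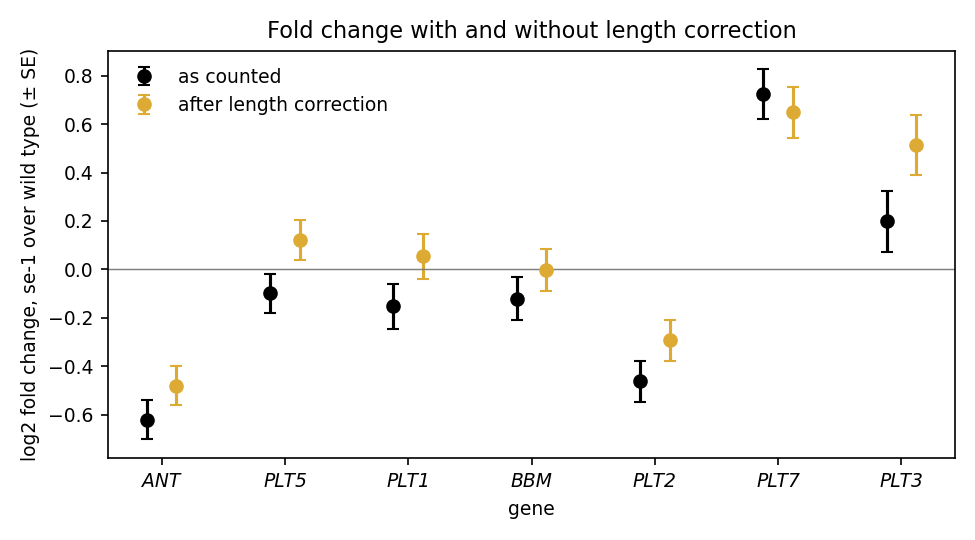
Log2 fold change of se-1 over wild type with its SE for the 7 tested members, as counted (black) and after length correction (yellow). ANT and PLT2 are below 0 and PLT7 above 0 in both, while PLT3 moves from 0.20 to 0.51 and PLT1 and PLT5 cross 0.

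Of 14 tested genes that act upstream of the AIL genes, 8 fell and 3 rose (median log2 fold change -0.41), beside 36% and 36.2% of all genes. With length corrected for, 5 were in each direction (median -0.03), beside 34.1% lower and 32.7% higher of all genes. REV (AT5G60690), a class III HD-ZIP gene of the shoot side, a group known to antagonise PLT genes in the embryo, stood at 63.8 and 61.9 CPM in se-1 against 136 and 131 CPM in wild type (log2 fold change -1.09, adjusted p = 7.9e-10). It remained lower after length correction, at -0.58. As counted, CNA (-0.57, adjusted p = 4.91e-06) and PHB (-0.44, adjusted p = 9.52e-05) fell too, while PHV did not pass (-0.11, adjusted p = 0.218). After length correction CNA (-0.04, adjusted p = 0.708) and PHB (-0.02, adjusted p = 0.811) did not pass and PHV was higher (0.29, adjusted p = 0.00311). With GC content corrected for as well, PHB was lower (-0.19, adjusted p = 0.0496), and CNA (-0.06, adjusted p = 0.51) and PHV (0.14, adjusted p = 0.127) did not pass. GCN5 (AT3G54610), a histone acetyltransferase needed for PLT expression in the root, stood at 44.4 and 47.6 CPM against 89.3 and 84.1 CPM (log2 fold change -0.91, adjusted p = 1.56e-08, or -0.77 after length correction). ADA2B, the adaptor protein of the GCN5 complex, went the other way (log2 fold change 0.31, adjusted p = 0.00313). The receptor kinase gene AT5G48940 fell by 0.89 on the log2 scale, or by 0.36 after length correction. The other receptor kinase genes of the list, AT3G24240 and AT4G26540, rose (log2 fold changes 0.88 and 1.33, or 1.501 and 1.89 after length correction). MP (AT1G19850) is the auxin response factor upstream of PLT genes in the embryo. MP stood at 163 and 152 CPM in se-1 and at 270.0 and 267.6 CPM in wild type (log2 fold change -0.77, adjusted p = 8.64e-08), or -0.24 (adjusted p = 0.0136) after length correction.

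Partners and reported targets of AIL proteins went both ways. Of 25 tested, 11 rose and 10 fell, beside 36.2% and 36% of all genes. After length correction 10 rose and 7 fell, beside 32.7% and 34.1%. L1L (AT5G47670), a relative of the embryo regulator LEC1, stood at 59.4 and 51.2 CPM in se-1 against 22.8 and 21.4 CPM in wild type (log2 fold change 1.32, adjusted p = 6.18e-10, or 0.88 after length correction). CUC1 (AT3G15170), an organ boundary gene, stood at 177 and 168 CPM against 93.1 and 90.2 CPM (log2 fold change 0.91, adjusted p = 8.11e-09, or 0.51). YUC3 (AT1G04610), an auxin synthesis gene, stood at 53.3 and 44.2 CPM against 89.3 and 107 CPM and fell by 1.01 on the log2 scale (adjusted p = 5.34e-08), and by 1.02 after length correction. The other auxin synthesis genes of the list, TAA1, YUC1, YUC4 and YUC8, rose, also after length correction. YUC8 was low, at 0.680 to 1.97 CPM. With GC content corrected for as well, YUC4 did not pass (0.19, adjusted p = 0.0559). The epidermal HD-ZIP class IV genes of the list encode proteins that bind BBM or are related to such proteins. All 5 of them (ATML1, PDF2, HDG1, HDG11 and HDG12) were lower, with log2 fold changes from -0.98 (HDG11) to -0.30 (HDG1), and ATML1, PDF2 and HDG11 were lower after length correction too. HDG12 (-0.12) and HDG1 (0.12, with its sign turned) did not pass after length correction, and with GC content corrected for as well ATML1 did not pass either (-0.14, adjusted p = 0.148). Among the seed regulators reported as BBM targets, LEC1, LEC2 and FUS3 did not pass (log2 fold changes 0.16, 0.14 and 0.19), while ABI3 (0.36, adjusted p = 4.96e-04) and AGL15 (0.31, adjusted p = 0.00561) rose. After length correction ABI3 was still higher, AGL15 did not pass, and LEC1 was lower (log2 fold change -0.46).

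Of the 10 other AP2-type genes 6 were tested, 4 rose and 1 fell, beside 36.2% and 36% of all genes. AP2 (AT4G36920), the floral regulator whose miR172 site is shown above, stood at 39.2 and 48.2 CPM in se-1 against 26.9 and 25.2 CPM in wild type (log2 fold change 0.75, adjusted p = 2.41e-06). TOE2 and TOE1, repressors of flowering that share the site, were at 0.59 (adjusted p = 2.3e-05) and 0.49 (adjusted p = 0.00206). The 3 also rose after length correction. WRI1, the regulator of oil synthesis that has the 9-nt exon and no such site, did not pass (log2 fold change 0.05, SE 0.086, adjusted p = 0.646). WRI4 and AT2G41710 likewise have the exon and no such site. WRI4 rose (log2 fold change 1.07, adjusted p = 0.00321), though not after length correction (0.68, adjusted p = 0.0512), and AT2G41710 fell (-0.23, adjusted p = 0.0432). As counted, genes without the site thus moved in both directions, with WRI4 at only 0.948 to 2.44 CPM. After length correction AT2G41710 was still lower (-0.24, adjusted p = 0.0407). In the list, 3 of the 6 tested genes were then higher and 1 lower, beside 32.7% and 34.1% of all genes. TOE3, SMZ and SNZ, with 17 or 18 paired bases, and WRI3 were too low to be tested. Whether miR172 had a part in these differences was not tested. Among the 24 genes whose smallest internal exon has 9 nt, 16 were tested, and 7 of the 16 are the members themselves. Of these 16 genes 3 rose and 6 fell (median log2 fold change -0.11). Of 13803 tested coding genes with any internal exon 4534 rose and 5371 fell (median -0.06).

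Of the 12 root pole genes 4 rose and 4 fell, beside 36.2% and 36% of all genes. With length corrected for, 3 were in each direction, beside 32.7% higher and 34.1% lower. TMO5 (AT3G25710), a target of MP in vascular patterning, stood at 15.5 and 14.3 CPM in se-1 against 30.5 and 30.5 CPM in wild type (log2 fold change -1.03, adjusted p = 1.81e-08). LHW, its dimer partner, fell by 0.56 on the log2 scale (adjusted p = 9.58e-06). TMO7 (AT1G74500), a small mobile MP target needed for the root founder cell, rose (log2 fold change 1.38, adjusted p = 5.28e-06). After length correction TMO5 (-1.20), LHW (-0.26) and TMO7 (0.65) kept their direction and passed, with the values of LHW and TMO7 much smaller. The root initiation genes WIP4 and WIP5 lie near PLT1 and PLT2, with 4 and 2 coding genes in between. They are thus not direct neighbours of these members, and they were chosen after their values were seen. WIP4 stood at 59.4 and 59.0 CPM against 43.1 and 45.2 CPM and rose (log2 fold change 0.42, adjusted p = 1.64e-04), and WIP5 was at 0.86 (adjusted p = 0.0113), where PLT2 fell and PLT1 did not pass. After length correction WIP4 was higher and WIP5 did not pass (adjusted p = 0.116). WOX5, a marker of the root organizer, rose (log2 fold change 0.95, adjusted p = 2.77e-04), but not after length correction (adjusted p = 0.0814). In all, 45 of the 57 tested genes of these 4 lists passed, or 78.9%, against 72.3% of all genes.

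**Figure D5:**
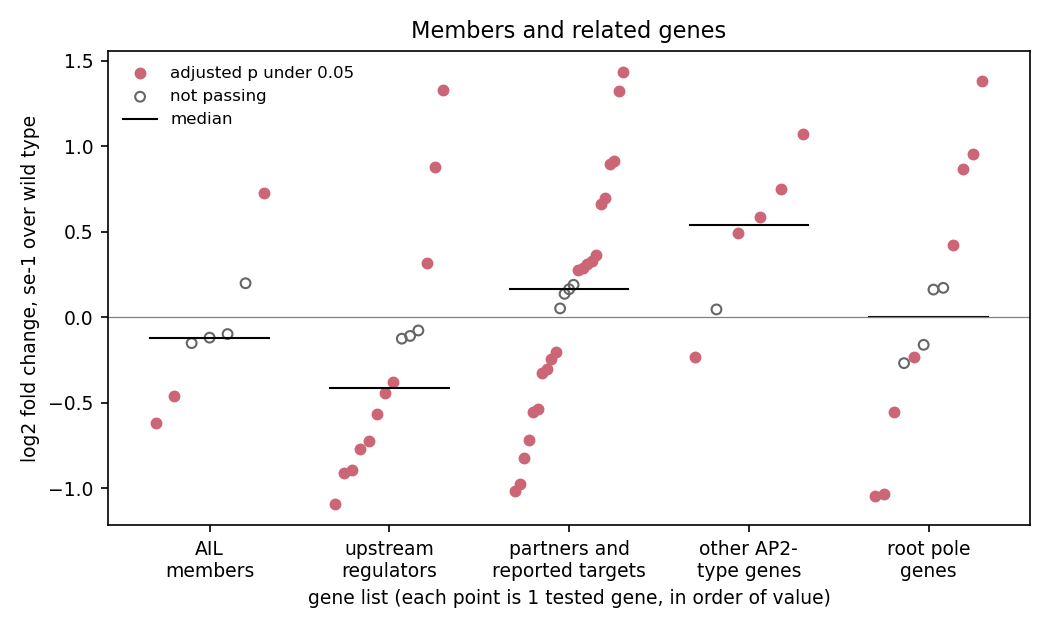
Log2 fold change of se-1 over wild type for each tested member and for each tested gene of 4 lists (vertical axis), in order of value within a list; filled points passed at an adjusted p under 0.05 and bars are medians. The members' median is -0.12, that of the upstream regulators -0.41 and that of the other AP2-type genes 0.54, and each list has points on both sides of 0.

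The genes most alike in level and pattern were found by the Euclidean distance in log2 CPM over the 4 libraries, among 18494 coding genes. The nearest to ANT was FUM1 (AT2G47510) at a distance of 0.0484, followed by ATNTT2 (AT1G15500) at 0.0823 and AT4G14310 at 0.0906. FUM1 stood at 234 and 220 CPM in se-1 and at 366 and 352 CPM in wild type. For PLT2 the nearest was APC8 at 0.062, and for PLT7 it was AT1G04880 at 0.0985. In 4 libraries of 2 genotypes such likeness says little beyond a like level and a like fold change.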

How the data were processed

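The authors deposited 1 table of raw counts of reads per gene for each of the 4 libraries. Tools named in the submitters' processing notes are HISAT2 2.0.5, featureCounts, Cufflinks 2.2.1 and FastQC 0.11.5, with the TAIR10 build. Read length, strand setting and the handling of multi-mapping reads: not given in the sources used here. The longest stretch identical between transcripts of members was 38 nt (PLT1 and PLT2), and reads within it could not be told apart. Per the labels' protocols, RNA was amplified before library preparation.

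The test of counts was that of edgeR 4.0.16 under R 4.3.3 (filterByExpr, TMM, quasi-likelihood F-test, two-sided, Benjamini-Hochberg at 0.05), fitted over all genes. The fit was also run on simulated counts with 200 changed genes and no length trend. Far more genes were called here, so that run does not show error control in these data. The SE is the absolute log2 fold change over the square root of F, and intervals are 95%. Lengths are those of the longest TAIR10.1 transcript. Length correction removed a natural spline (4 degrees of freedom) of log2 fold change on log2 length, as an offset. The bound for a count of 0 takes 3 counts over the group. The libraries are described as biological replicates. Chi-square over degrees of freedom was 5.87 and 4.10 between replicates, more than sampling noise.

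The members and lists were chosen with earlier results of these data known. Named by rule were all members, the 3 genes with the smallest p in each of the 4 lists of related genes, and the members' neighbours; every other listed gene or marker named was chosen after its values were seen. RITF1 was dropped, as the annotation gives its locus another name. Alternatives were DESeq2 1.42.0 and its size factors, library size alone, limma-voom (limma 3.58.1), 2 other filters, a replicate block, each library left out, and corrections for length and for length with GC.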

Additional observations from a re-analysis of the deposited data

How the results depend on the processing

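Under all 13 alternatives ANT (log2 fold change -0.66 to -0.43), PLT2 (-0.50 to -0.29) and PLT7 (0.55 to 0.77) kept their direction and passed, and BBM and PLT5 passed under none. The number of members called was 3 in all but 3 alternatives. It was 5 without wild-type replicate 1, where PLT1 (-0.27) and PLT3 (0.37) passed, and 4 after correction for length or for length and GC, where PLT3 passed. Over the libraries left out in turn it ranged from 3 to 5. PLT1 (0.054) changed sign after length correction, and PLT5 did so after correction for length (0.12) and for length and GC (0.11), none of them passing. The genes called in all ranged from 11114 (DESeq2) to 13683 (replicate block). With the replicate block 3 members were called, the same number as without it. The deviations of same-numbered libraries had a correlation of 0.0263 over genes, so no shared effect of the replicate number was seen. This value cannot show whether same-numbered libraries were prepared together. With 1 library left out, the lone sample of a genotype is assumed to vary like the other genotype. AIL1 was too low to be tested. For PLT1, BBM and PLT5 the intervals as counted allow log2 fold changes down to -0.35, and PLT3 ranged from 0.04 (without wild-type replicate 2) to 0.55 (length and GC).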

Other observations

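The coding genes next to the members on the chromosome differed in their direction. GRF2, a growth-regulating factor gene beside ANT on the other strand, stood at 76.4 and 82.7 CPM in se-1 against 47.5 and 45.0 CPM in wild type and was higher (log2 fold change 0.78, SE 0.084, adjusted p = 1.31e-07), whereas SQE3, on the other side of ANT, was at -0.25 (adjusted p = 0.0965). AT1G51200, downstream of PLT2, stood at 301 and 311 CPM against 440 and 447 CPM and was lower (log2 fold change -0.53, adjusted p = 8.95e-06, or -0.91 after length correction). AT5G17440, upstream of BBM, was higher at 0.49 (adjusted p = 1.04e-04), and VIN3, a vernalisation gene beside PLT5, was at 0.12 (adjusted p = 0.533). UCNL beside PLT1 (1.56, adjusted p = 0.00497, at most 0.91 CPM) and IRX3 beside BBM (0.81, adjusted p = 0.0272) were higher. IRX3 stood at 1.39 and 2.78 CPM in se-1 against 1.26 and 1.15 CPM in wild type. Its rise thus lay mostly in se-1 replicate 2. Beside AIL1, PSD was lower (-0.36, adjusted p = 0.00115) but higher after length correction (0.29), and AT1G72580 did not pass (0.15, adjusted p = 0.702). Neighbours not named were too low to be tested.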
